A study of Homo sapiens with 30 samples.

Results

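HSP90AA1 and HSP90AB1, the genes of the inducible and the constitutive cytosolic HSP90 chaperone, were followed together with 7 genes of HSP90 cochaperones: STIP1, CDC37, AHSA1, CHORDC1, PTGES3, FKBP4 and FKBP5. These 9 genes were taken by symbol from the 30373 genes of the expression table. The rule names genes and sets no threshold on values, though it was drawn up with earlier results of these data known. Each stayed above the low-value filter in every group. The values are FPKM (fragments scaled by transcript length and library total), from polyadenylated RNA of established human cancer cell lines. The study exposed these lines to ML-792, labelled ML00754792, an inhibitor of the SUMO-activating enzyme, which starts the attachment of the small modifier SUMO to proteins. Controls received DMSO, the solvent.

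The 30 libraries made up 10 groups of n = 3, and the labels call the RNA samples biological triplicates. In an experiment of 16 h, the colorectal lines HCT116 and COLO205 and the breast line MDAMB231 each had a group with 500 nM ML-792 and a group with 0.01% DMSO. In an experiment of 3.5 h, only HCT116 was used, with DMSO or ML-792 and with or without heat shock. The heat shock lasted 0.5 h at 43 °C, came after 2 h in drug or solvent, and was followed by 1 h of recovery at 37 °C. The library codes in the labels run in separate ranges for the 16 h, the heat shocked and the remaining 3.5 h libraries. Whether those ranges were batches is not stated, so heat shock and code range cannot be told apart, nor can treatment time and experiment. Library numbers 1 to 3 below only name the libraries of a group and pair nothing.

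HSP90 is a dimeric ATPase that helps folded but unstable clients, among them kinases and steroid receptors, to reach or keep an active shape. STIP1 (HOP) bridges HSP70 and HSP90 in the loading step, CDC37 brings kinases, AHSA1 (AHA1) stimulates the ATPase, and PTGES3 (p23) binds and stabilises the closed, ATP-bound dimer. The immunophilins FKBP4 (FKBP52) and FKBP5 (FKBP51) act late in the cycle on steroid receptors, and CHORDC1 (morgana) is a CHORD-domain HSP90 partner. Many genes of this machinery are targets of HSF1, the heat shock transcription factor, which binds arrays of the units TTC and GAA in alternation.

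Since heat shock was the treatment with the largest changes of these genes, the stretches before their transcription starts that hold such arrays are shown first. They come from RefSeq promoter entries on GRCh38.p14, 5′ to 3′ on the gene's strand, with TTC and GAA units of the array in capitals. The HSP90AA1 stretch lies at chr14:102087105-102087134 on the minus strand, from base -90 to -61 counted from the RefSeq start. The HSP90AB1 stretch lies at chr6:44247773-44247848 on the plus strand, from -170 to -95, and holds 2 separate arrays. The CHORDC1 stretch lies at chr11:90223083-90223112 on the minus strand, from -63 to -34, and holds 5 units without a break.
HSP90AA1: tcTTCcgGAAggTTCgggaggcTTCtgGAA
HSP90AB1: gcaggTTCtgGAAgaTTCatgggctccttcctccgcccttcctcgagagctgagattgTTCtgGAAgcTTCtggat
CHORDC1: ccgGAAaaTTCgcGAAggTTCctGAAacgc
The motif searched had 3 units in alternation, spelled GAANNTTCNNGAA or TTCNNGAANNTTC, which are each other's reverse complement, so that both strands were covered and overlapping matches were counted. RefSeq gave 14 windows of 250 bases before a start for 8 of the 9 genes, all but FKBP4. A perfect match stood in 3 windows of 3 genes: 1 in HSP90AA1, 2 in HSP90AB1 and 3 overlapping ones in CHORDC1. Of all 35116 windows of that length, 0.441% held one. With at most 1 mismatch the windows were these 3 and the PTGES3 window, against 5.33% of all windows. The shorter motif of 2 units, GAANNTTC or TTCNNGAA, stood in the same 3 windows of the set and in 11.6% of all. In GENCODE v29 (GRCh38), the HSP90AA1 window lies in an intron of the long transcript HSP90AA1-202 and reaches an exon of HSP90AA1-201. The HSP90AB1 window is intronic in HSP90AB1-201, 606 bases after the start of that transcript, and the CHORDC1 window reaches an exon of CHORDC1-201. The HSP90AB1 window that overlaps the start of HSP90AB1-201 (chr6:44246851-44247100) held 0 matches, as did the further windows of HSP90AB1 and HSP90AA1. A match describes the letters only and is not a measured binding site.

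The 2 HSP90 genes were among the most abundant transcripts of HCT116. By mean FPKM, which is scaled by length, HSP90AB1 ranked 16 and HSP90AA1 29 among 11554 genes at 1 FPKM or more in DMSO at 3.5 h, and 8 and 11 among 11837 after heat shock in DMSO. In COLO205 in DMSO they ranked 199 and 163 of 11908. Of the cochaperones in HCT116 at 3.5 h in DMSO, PTGES3 had the highest level (347.6 FPKM) and FKBP5 the lowest (32.9 FPKM). Over the 10 group means the levels spanned 21.1-fold for FKBP4, 17.8-fold for HSP90AB1, 10.4-fold for HSP90AA1 and 8.16-fold for CHORDC1. The spans of STIP1 and AHSA1 were 6.43 and 6.30-fold. CDC37 spanned 3.69-fold, and PTGES3 and FKBP5 spanned 3.36-fold each. For 7 genes the 2 heat shocked groups were the highest, and for all 9 a COLO205 or MDAMB231 group was the lowest. FKBP5 was highest in HCT116 without heat shock at 3.5 h, and PTGES3 was highest after heat shock in DMSO only.

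**Figure D1:**
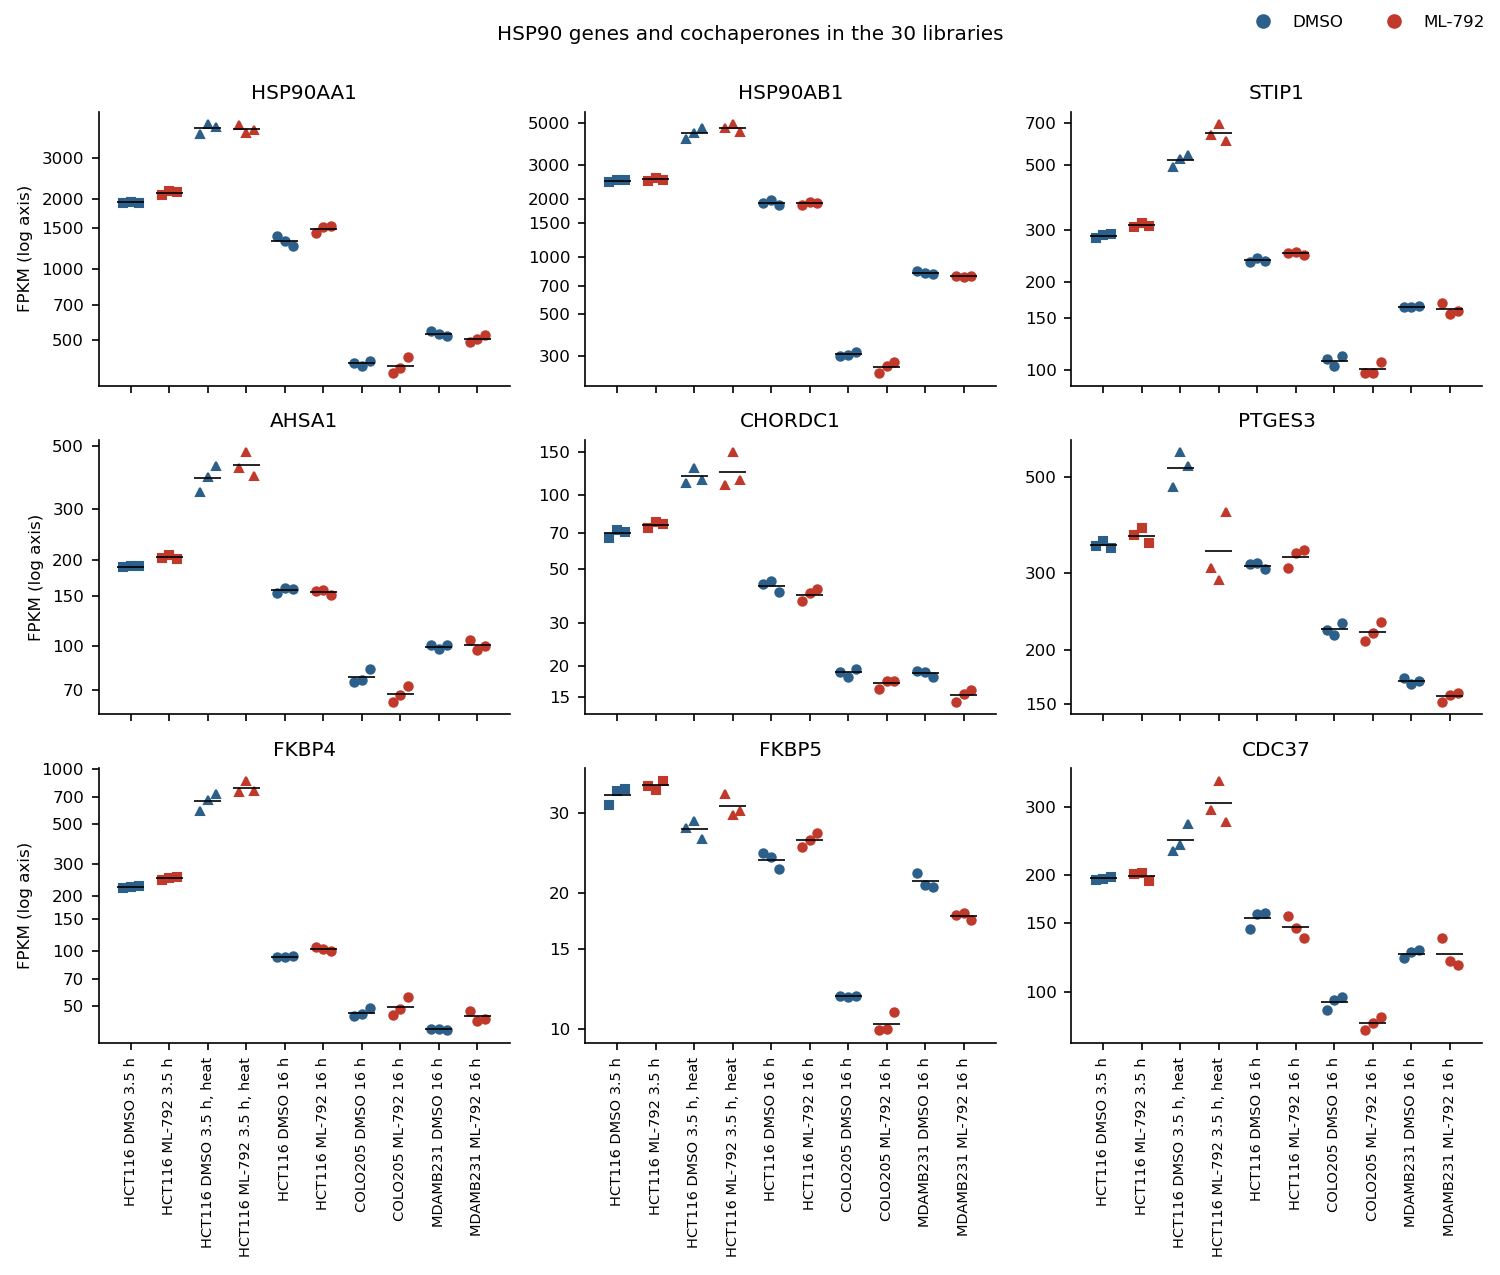
FPKM (log axis) of each of the 9 genes in every library, in the order of the 10 groups; points are libraries, the line is the group mean, blue is DMSO and red ML-792, circles are 16 h, squares 3.5 h and triangles heat shocked libraries. The heat shocked libraries stand highest in 7 panels, and the FKBP5 and PTGES3 panels differ from this pattern.

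In the order of the levels, neighbouring groups whose libraries overlap were not taken as apart. For HSP90AA1 these were 3 of the 9 steps: heat shock in DMSO (4010.5 FPKM) and in ML-792 (3973 FPKM), MDAMB231 with DMSO (529 FPKM) and ML-792 (505 FPKM), and COLO205 with DMSO (396 FPKM) and ML-792 (387 FPKM). For HSP90AB1 the 3 overlapping steps were all between DMSO and ML-792 in HCT116: with heat shock, at 3.5 h and at 16 h. STIP1 and FKBP4 each had 2 overlapping steps, all among the COLO205 and MDAMB231 groups. The levels of STIP1 in HCT116 ran in a strict order from 644 FPKM in ML-792 with heat shock to 237 FPKM in DMSO at 16 h, with no overlap between neighbours. AHSA1, CHORDC1, FKBP5 and CDC37 had 3 overlapping steps each. PTGES3 had 5: its groups from ML-792 at 3.5 h (366 FPKM) down to DMSO at 16 h (312 FPKM) formed a chain of overlaps that took in the heat shocked ML-792 group (337 FPKM).

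Heat shock in DMSO asked how these genes respond to heat when SUMO attachment is not inhibited. All 9 passed the test (limma, Benjamini-Hochberg adjusted p under 0.05): 8 rose and FKBP5 fell. In this comparison 49.5% of the 12191 genes tested were called, 28.9% higher and 20.6% lower. Every one of the 9 had groups that did not overlap, as did 62.0% of all genes. The median change of the 9 genes was 0.83 on the log2 scale, and that of all genes 0.05. All changes here and below are limma estimates ± SE on log2(FPKM + 1) between groups of n = 3. Bulk values cannot tell fewer cells from less RNA per cell.

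In the values as deposited, the chaperone genes themselves came near to doubling. HSP90AA1 measured 1917, 1948 and 1928 FPKM in DMSO without heat shock, and 3788, 4179.8 and 4064 FPKM with it. HSP90AB1 measured 2449, 2512 and 2527 FPKM without heat shock, and 4126, 4456 and 4718 FPKM with it. The lowest heat shocked library lay far above the highest one without heat shock for both genes. The change was 1.05 ± 0.06 for HSP90AA1 (2.07-fold, adjusted p = 3.5e-08) and 0.83 ± 0.07 for HSP90AB1 (1.77-fold, adjusted p = 8.1e-07). Together they took 0.795% ± 0.007 (SD, n = 3) of all FPKM without heat shock and 1.28% ± 0.047 with it.

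Among the cochaperones, FKBP4 rose most, by 1.55 ± 0.08 (2.94-fold, adjusted p = 6.5e-09). Its libraries read 222, 224 and 227 FPKM without heat shock and 589.6, 677 and 724 FPKM with it. AHSA1, the ATPase activator, rose by 1.03 ± 0.08 (2.04-fold, adjusted p = 5.4e-07), from 188, 189.5 and 190.3 FPKM to 346, 390.3 and 426 FPKM. STIP1, the adaptor to HSP70, rose by 0.85 ± 0.06 (1.81-fold, adjusted p = 2.3e-07), from 281, 289.5 and 292 FPKM to 494, 526 and 541 FPKM. In these 3 genes the heat shocked libraries were spread more widely than the others, with library 1 the lowest each time, and no group overlapped. The summed FPKM of heat shocked DMSO libraries 1, 2 and 3 rose in the same order (608121, 655005 and 714066). Its part in this spread was not tested.

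CHORDC1 rose by 0.76 ± 0.10 (1.70-fold, adjusted p = 3.9e-05), from 66.7, 71.9 and 70.9 FPKM to 113, 129.6 and 116 FPKM. PTGES3 rose by 0.59 ± 0.11 (1.50-fold, adjusted p = 0.00099), from 345, 355 and 342 FPKM to 472, 569 and 529 FPKM. The kinase adaptor CDC37 showed the smallest rise, 0.33 ± 0.09 (1.26-fold, adjusted p = 0.0068), from 194, 195 and 198 FPKM to 230.1, 239 and 271 FPKM. FKBP5 went the other way from its close relative FKBP4: it fell by 0.24 ± 0.06 (adjusted p = 0.0036), from 31.2, 33.6 and 33.9 FPKM to 27.8, 28.8 and 26.3 FPKM. The ratio of FKBP4 to FKBP5 accordingly went from 6.82 to 24.1.

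**Figure D2:**
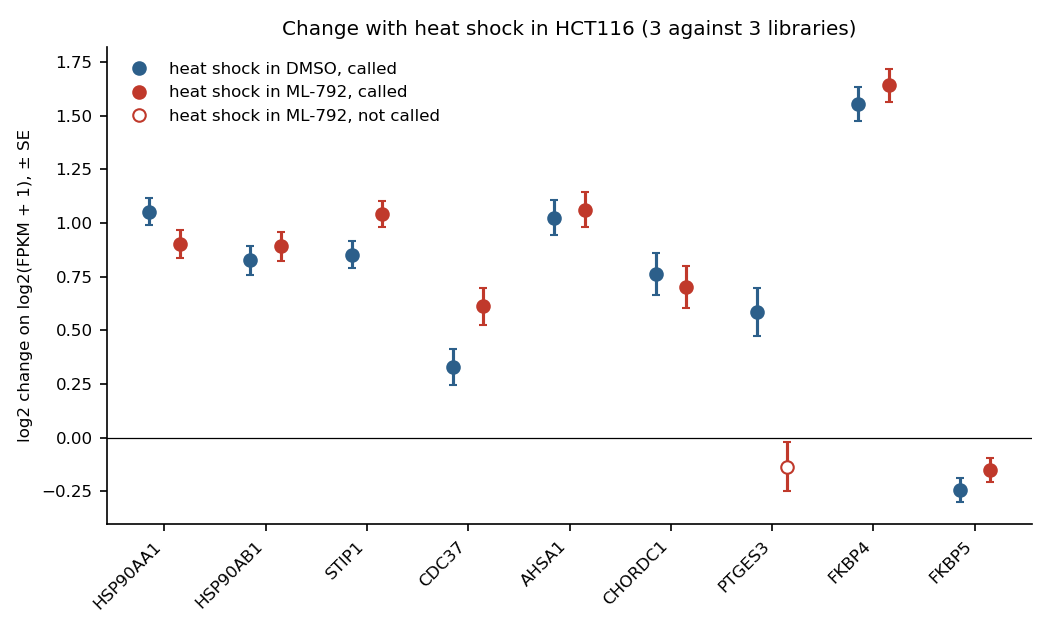
Change with heat shock in HCT116 (log2 of FPKM + 1, heat shock minus no heat shock) for each of the 9 genes, in DMSO and in ML-792; bars are ± SE from limma, and open symbols did not pass the test. FKBP4 has the largest rise in both settings, FKBP5 lies below 0 in both, and PTGES3 rises in DMSO but not in ML-792.

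The scale of the libraries bears on these values. The FPKM of a library summed to between 608121 and 732251 after heat shock and to between 552951 and 575982 without it. When all libraries were given equal totals, the median of all genes moved by -0.21 in DMSO and by -0.26 in ML-792, and with median-of-ratios scaling by -0.08 and -0.13. With equal totals CDC37 changed by 0.09 with heat shock in DMSO (adjusted p = 0.147), and the other 8 calls held under all 3 scalings. The sizes did move. Over the alternative settings the lowest changes in DMSO were 1.32 for FKBP4, 0.81 for HSP90AA1, 0.59 for HSP90AB1, 0.35 for PTGES3 and -0.48 for FKBP5. Over all genes, 58.4% of the calls in DMSO were higher as deposited, 22.2% with equal totals and 43.4% after median-of-ratios scaling. In ML-792 these shares were 63.8%, 24.2% and 42.7%.

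Heat shock was also compared with none in cells held in ML-792. Here 8 of the 9 genes passed the test, 7 higher and FKBP5 lower, where 61.7% of all genes were called (39.3% higher, 22.3% lower). The median of the 9 was 0.89, against 0.10 for all genes. FKBP4 rose by 1.64 ± 0.08 (3.12-fold, adjusted p = 4.3e-09), AHSA1 by 1.06 ± 0.08, STIP1 by 1.04 ± 0.06, HSP90AA1 by 0.90 ± 0.06 and HSP90AB1 by 0.89 ± 0.07. CHORDC1 rose by 0.70 ± 0.10 and CDC37 by 0.61 ± 0.09 (adjusted p = 6.7e-05). FKBP5 changed by -0.15 ± 0.06 (adjusted p = 0.036), a call that was lost when any 1 of the 3 ML-792 libraries without heat shock, or heat shocked ML-792 library 2 or 3, was left out (adjusted p up to 0.113).

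PTGES3, the p23 gene, was the member that did not pass in ML-792. Its libraries read 366, 380.0 and 352 FPKM without heat shock and 307, 289 and 415 FPKM with it. Library 3 of the heat shocked group lay above all 3 libraries without heat shock and libraries 1 and 2 below them. The change was -0.14 ± 0.11 and did not pass the test (adjusted p = 0.31). Without library 3 it was -0.29 (adjusted p = 0.0066), and with equal totals -0.43 (adjusted p = 0.0090).

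Whether the heat response differed between ML-792 and DMSO was tested as an interaction. PTGES3 was the 1 member of 9 that passed, with a difference of -0.72 ± 0.16 (adjusted p = 0.0295), where 6.41% of all genes were called and 3.93% were lower. The count at an unadjusted p under 0.05 was 2. The other 8 genes had differences between -0.15 (HSP90AA1) and 0.28 (CDC37). The PTGES3 call is not firm: it was lost without DMSO heat shock library 2 or without any 1 of the 6 libraries of 3.5 h that had no heat shock (adjusted p up to 0.0901), and with no filter on low values (0.0666). Among all genes, 38.7% of the interaction calls were higher as deposited, 14.98% with equal totals and 18.9% after median-of-ratios scaling.

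ML-792 was also compared with DMSO within the heat shocked cells. Unlike the interaction, this contrast includes any effect that ML-792 had without heat shock. These comparisons use some of the same libraries and are not independent of the ones above. PTGES3 was lower in ML-792 by -0.65 ± 0.11 (0.639-fold, adjusted p = 0.0029): the 3 ML-792 values given above lie below 472, 569 and 529 FPKM in DMSO, with no overlap, as for 15.3% of all genes. Of the 9 genes 4 were higher and 1 lower, where 33.5% of all genes were called (18.4% higher, 15.1% lower).

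STIP1 was higher by 0.31 ± 0.06 (adjusted p = 0.0051), at 634, 693 and 607 FPKM in ML-792 against 494, 526 and 541 FPKM in DMSO. CDC37 was higher by 0.30 ± 0.09 (adjusted p = 0.02), at 295, 349.8 and 273 FPKM against 230.1, 239 and 271 FPKM. Its lowest ML-792 library and its highest DMSO library were nearly equal. FKBP4 was higher by 0.25 ± 0.08 (adjusted p = 0.0299), at 746, 857 and 757 FPKM against 589.6, 677 and 724 FPKM. FKBP5 was higher by 0.16 ± 0.06 (adjusted p = 0.0476), at 33.02, 29.7 and 30.3 FPKM against 27.8, 28.8 and 26.3 FPKM. For these 4 genes every ML-792 library lay above every DMSO library, as it did for 19.7% of all genes. The changes of HSP90AA1 (-0.01 ± 0.06), HSP90AB1 (0.09 ± 0.07), AHSA1 (0.14 ± 0.08) and CHORDC1 (0.05 ± 0.10) did not pass the test, and their libraries overlapped.

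Single libraries decided several of these calls. The calls of FKBP4 and CDC37 were lost without DMSO library 1 or 2 or ML-792 library 2 (adjusted p up to 0.111 and 0.0761), and that of FKBP4 also with median-of-ratios scaling. That of FKBP5 was lost without any 1 of the 3 DMSO libraries or ML-792 library 1 (up to 0.142) and with either other scaling (up to 0.445), and AHSA1 passed without DMSO library 3 (0.0427). Fitted on the 6 heat shocked libraries alone, which had a wider spread between replicates (median SD over all genes 0.0904 in DMSO and 0.112 in ML-792, against 0.0421 and 0.0449 without heat shock), no member passed, and PTGES3 had an adjusted p of 0.0537. Over all genes, the share of calls that were higher was 54.9% as deposited, 32.8% with equal totals and 31.8% after median-of-ratios scaling.

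**Figure D3:**
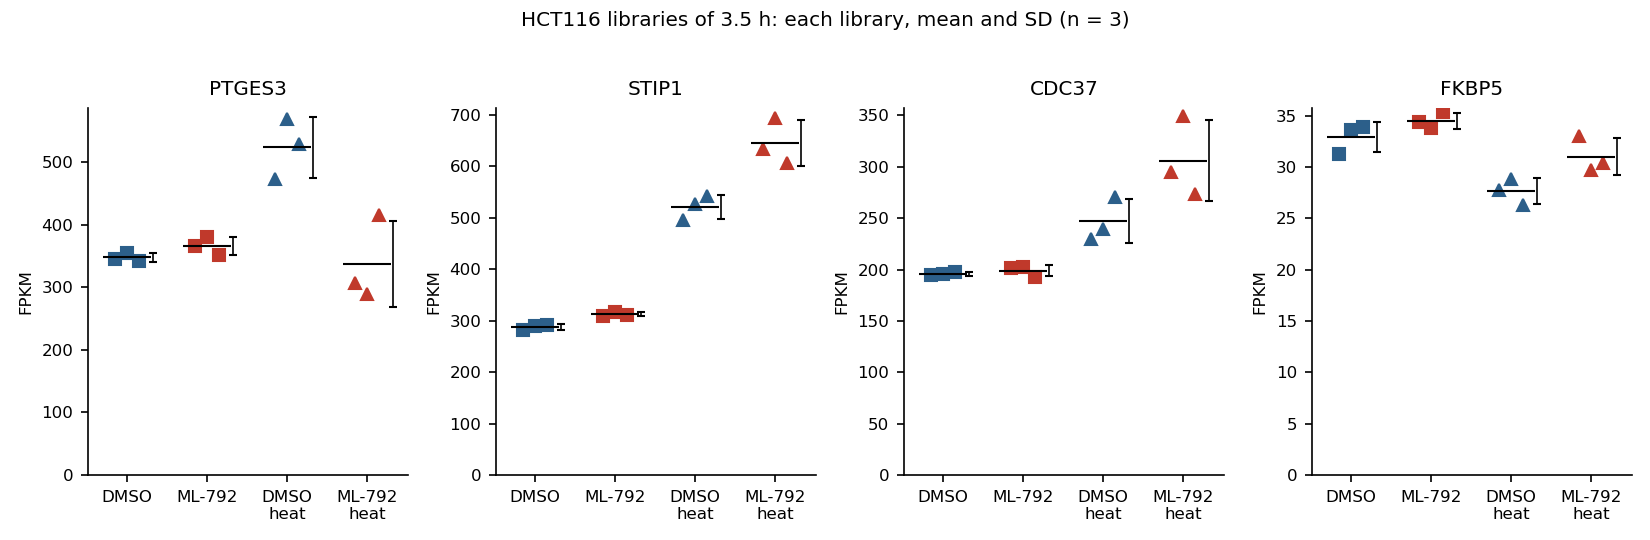
FPKM of PTGES3, STIP1, CDC37 and FKBP5 in the 4 groups of the 3.5 h experiment; points are libraries, lines are means and bars are SD (n = 3). The ML-792 heat shock group of PTGES3 lies below the DMSO heat shock group, while that of STIP1 lies above it.

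Without heat shock, 3.5 h of ML-792 gave small values. None of the 9 genes passed the test in limma (0 of 9, where 1.21% of all genes were called), 1 had an unadjusted p under 0.05 (HSP90AA1), and the smallest adjusted p was 0.678. The changes ran from 0.02 (HSP90AB1 and CDC37) to 0.16 ± 0.08 (FKBP4). HSP90AA1 read 2072, 2168 and 2133 FPKM in ML-792 against 1917, 1948 and 1928 FPKM in DMSO, and FKBP4 read 246, 253 and 254 FPKM against 222, 224 and 227 FPKM. In 5 genes, these 2 with STIP1, AHSA1 and CHORDC1, every ML-792 library lay above every DMSO library, as it did for 14.3% of all genes. When only these 6 libraries were fitted, without the more variable heat shocked ones, 4 of the 9 passed: FKBP4 (adjusted p = 0.0065), HSP90AA1 (0.025), STIP1 (0.0335) and AHSA1 (0.038).

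After 16 h of ML-792 the 3 lines were compared with their own DMSO controls. In HCT116, 2 of the 9 genes rose, where 14.7% of all genes were called and 8.32% were higher. HSP90AA1 read 1425, 1520.1 and 1525 FPKM in ML-792 against 1393, 1322 and 1254 FPKM in DMSO. Its change was 0.17 ± 0.05 (adjusted p = 0.0367). FKBP5 read 25.3, 26.2 and 27.2 FPKM against 24.5, 24.0 and 22.5 FPKM, a change of 0.14 ± 0.04 (adjusted p = 0.0396). The groups did not overlap, nor did those of STIP1 and FKBP4, all 4 being higher in ML-792 as were 15.3% of all genes, but each of these calls was lost without library 2 or 3 of either group (adjusted p up to 0.177 and 0.191) and with either other scaling (up to 0.079 and 0.135). HSP90AB1, with 1870.4, 1941 and 1897 FPKM against 1906, 1974 and 1862 FPKM, changed by -0.01 ± 0.04. FKBP4 (0.14 ± 0.06, adjusted p = 0.15) and CHORDC1 (-0.12 ± 0.05, adjusted p = 0.16) did not pass. Over all genes, 56.4% of the HCT116 calls were higher as deposited, 35.4% with equal totals and 44.9% after median-of-ratios scaling.

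In COLO205, 5 of the 9 genes fell and none rose, where 37.0% of all genes were called and 17.7% of all genes were lower. HSP90AB1 read 245, 268 and 282 FPKM in ML-792 against 300.1, 306 and 317 FPKM in DMSO. It fell by 0.22 ± 0.04 (0.86-fold, adjusted p = 0.00064). HSP90AA1, at 359, 378 and 422 FPKM against 397, 386 and 405 FPKM, overlapped and did not pass (-0.04 ± 0.05). FKBP5 fell by 0.19 ± 0.04 (adjusted p = 0.0032), from 11.8, 11.8 and 11.9 FPKM to 9.95, 9.996 and 10.9 FPKM. AHSA1 fell by 0.19 ± 0.05 (adjusted p = 0.0045), from 74.6, 75.8 and 83.2 FPKM to 63.9, 67.5 and 72.7 FPKM. HSP90AB1, FKBP5 and AHSA1 were each lower in every ML-792 library than in any DMSO library.

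The other 2 calls in COLO205 were weaker. CDC37 fell by 0.18 ± 0.06 (adjusted p = 0.0306), from 89.5, 95.0 and 97.1 FPKM to 79.6, 83.1 and 86.1 FPKM. CHORDC1 fell by 0.14 ± 0.05 (adjusted p = 0.0422), from 19.0, 18.2 and 19.6 FPKM to 16.2, 17.4 and 17.5 FPKM. In these 2 genes the libraries were apart too, which made 5 of 9 where 23.7% of all genes were apart and lower, yet the CDC37 call was lost without ML-792 library 1 or 2 or DMSO library 2 or 3 (adjusted p up to 0.108). The CHORDC1 call was lost without ML-792 library 1 or 2 or DMSO library 1 or 3 (up to 0.155). STIP1 (-0.10 ± 0.04, adjusted p = 0.065) passed when ML-792 library 3 or DMSO library 2 was left out and with either other scaling, and FKBP4 (0.10 ± 0.06, adjusted p = 0.23) passed without ML-792 library 1.

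In MDAMB231, 2 of the 9 genes fell and 1 rose, where 16.9% of all genes were called (8.48% lower, 8.38% higher). CHORDC1 fell by 0.28 ± 0.05 (0.825-fold, adjusted p = 0.0012), from 19.2, 19.0 and 18.1 FPKM to 14.4, 15.5 and 16.1 FPKM. FKBP5 fell by 0.24 ± 0.04 (0.846-fold, adjusted p = 0.00086), from 22.1, 20.8 and 20.6 FPKM to 17.9, 18.01 and 17.4 FPKM. FKBP4 rose by 0.23 ± 0.06 (1.17-fold, adjusted p = 0.0178), from 37.6, 37.4 and 36.9 FPKM to 47.2, 41.7 and 42.7 FPKM. No group overlapped in these 3 genes, and in FKBP4 the rise was largest in ML-792 library 1. Its call was lost without that library or DMSO library 2 or 3 (adjusted p up to 0.0815). HSP90AA1 (-0.07 ± 0.05) and HSP90AB1 (-0.06 ± 0.04) did not pass. PTGES3 changed by -0.11 ± 0.04 (adjusted p = 0.079), with all ML-792 libraries below all DMSO libraries, and passed with equal totals. In all, 4 of the 9 genes were apart and lower and 1 apart and higher, against 17.0% and 17.3% of all genes.

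**Figure D4:**
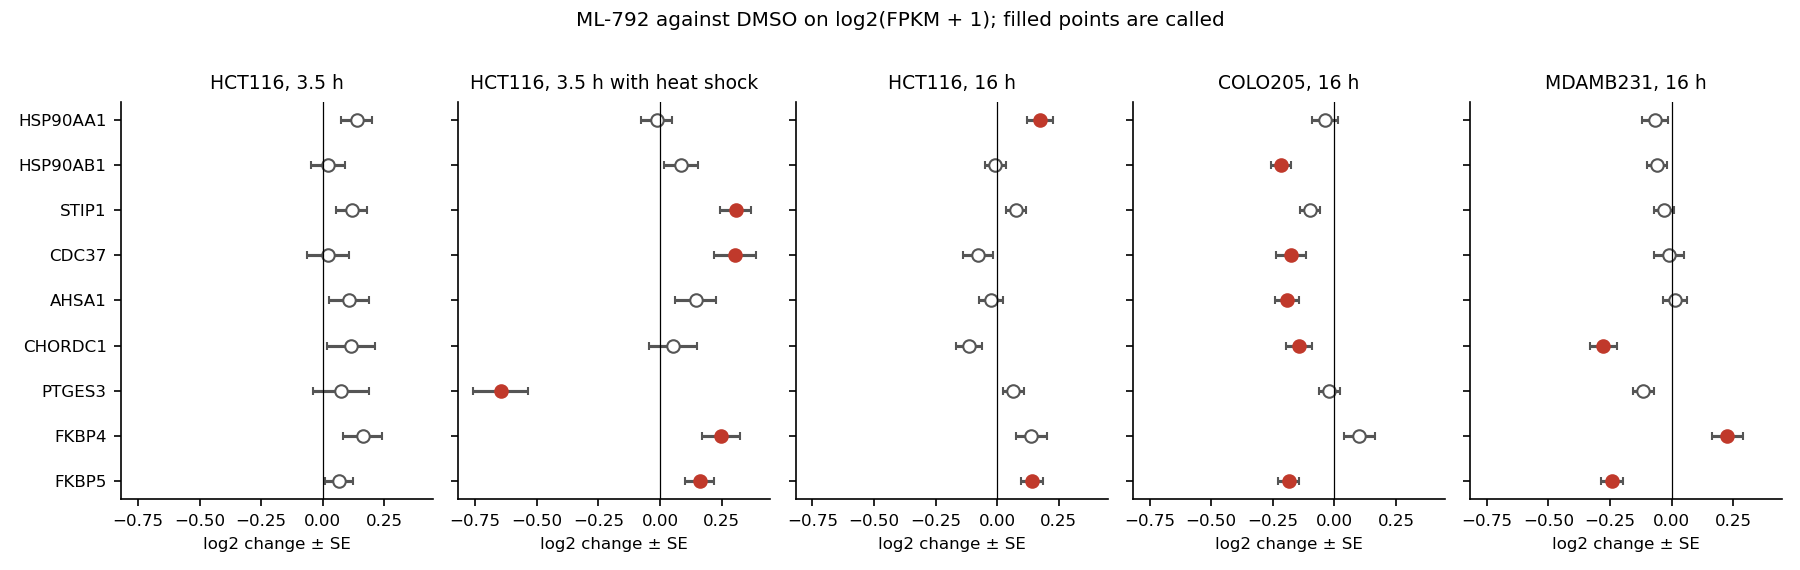
Change with ML-792 (log2 of FPKM + 1, ML-792 minus DMSO) for the 9 genes in 5 settings: HCT116 at 3.5 h, HCT116 with heat shock, and HCT116, COLO205 and MDAMB231 at 16 h; bars are ± SE from limma and filled symbols passed the test. PTGES3 after heat shock has the largest change, -0.65, and FKBP5 is above 0 in HCT116 and below 0 in COLO205 and MDAMB231.

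Whether the 16 h effect of ML-792 differed between lines was tested directly. A joint test over the 3 lines called 3 of the 9 genes, where 31.0% of all genes were called: FKBP5 (adjusted p = 0.00033), HSP90AB1 (0.0291) and HSP90AA1 (0.0363). FKBP5 had the clearest difference, at -0.33 ± 0.06 for COLO205 minus HCT116 (adjusted p = 0.0013) and -0.38 ± 0.06 for MDAMB231 minus HCT116 (adjusted p = 0.00057). Its 2 differences share the HCT116 libraries. Both stood whichever single library was left out.

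The other differences between pairs of lines were less firm. COLO205 minus HCT116 called 3 of 9, all lower (19.4% of all genes, 9.75% lower): FKBP5, HSP90AB1 by -0.21 ± 0.06 (adjusted p = 0.0205) and STIP1 by -0.18 ± 0.06 (adjusted p = 0.0404). MDAMB231 minus HCT116 called 2 of 9, both lower (10.8%, with 5.84% lower): FKBP5 and HSP90AA1 by -0.24 ± 0.07 (adjusted p = 0.0489). MDAMB231 minus COLO205 called 1 of 9 (26.0%), AHSA1 by 0.21 ± 0.07 (adjusted p = 0.0335). The HSP90AB1 call was lost in 2 of 12 fits that each left out 1 library (HCT116 ML-792 library 2 and DMSO library 3), and those of STIP1, HSP90AA1 and AHSA1 in 9, 9 and 7 of 12, that of HSP90AA1 also with either other scaling. Between 16 h and 3.5 h in HCT116 the effect of ML-792 did not differ beyond the test for any member (0 of 9 in limma, 2 at an unadjusted p under 0.05, smallest adjusted p 0.109, where 2.40% of all genes were called). The 2 were CHORDC1 (-0.23 ± 0.07) and AHSA1 (-0.13 ± 0.05).

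The lines in DMSO differed in these genes by more than ML-792 changed most of them. All 9 genes were lower in COLO205 than in HCT116 in DMSO at 16 h, where 84.9% of all genes were called and 45.5% were lower. The DMSO libraries are those used as controls above. HSP90AB1 was 6.21-fold lower, at 300.1, 306 and 317 FPKM against 1906, 1974 and 1862 FPKM, and HSP90AA1 was 3.33-fold lower, at 397, 386 and 405 FPKM against 1393, 1322 and 1254 FPKM. These 2 differences stood above those of all cochaperones, which ran from 1.40-fold (PTGES3) to 2.20-fold (STIP1). In MDAMB231 all 9 were lower than in HCT116 as well (83.6% of all genes called, 45.5% lower), from 2.50-fold for HSP90AA1, 2.46-fold for FKBP4 and 2.33-fold for HSP90AB1 to 1.11-fold for FKBP5, the last a call that both other scalings removed (adjusted p up to 0.553). Between MDAMB231 and COLO205, 6 were higher in MDAMB231, led by HSP90AB1 (2.67-fold) and FKBP5 (1.73-fold), and PTGES3 (1.32-fold) and FKBP4 (1.23-fold) were lower (86.4% of all genes called, 41.9% higher and 44.5% lower). CHORDC1 did not differ beyond the spread (-0.01 ± 0.05, adjusted p = 0.83).

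The FPKM of each cochaperone was also set against the sum of HSP90AA1 and HSP90AB1. In DMSO at 16 h that sum was 704 FPKM in COLO205, 1351 FPKM in MDAMB231 and 3237 FPKM in HCT116. Any gene that differed less than this sum between the lines has its highest share in COLO205, and all 7 cochaperones did. PTGES3 stood at 31.7% ± 0.37 (SD, n = 3) of the HSP90 sum in COLO205, against 12.5% ± 0.17 in MDAMB231 and 9.65% ± 0.15 in HCT116. For STIP1 the shares were 15.3%, 12.2% and 7.33%, and for CDC37 13.3%, 9.29% and 4.79%. Heat shock in DMSO moved these shares apart: FKBP4 went from 5.07% ± 0.04 to 7.84% ± 0.39, while PTGES3 went from 7.85% ± 0.15 to 6.19% ± 0.34, CDC37 from 4.42% to 2.92% and FKBP5 from 0.744% to 0.328%. STIP1 went from 6.50% to 6.17%, CHORDC1 from 1.58% to 1.41% and AHSA1 from 4.28% to 4.58%. The HSP90 sum itself went from 4427 to 8444 FPKM, so the share falls for any gene that rose by less. Other genes were not set against the HSP90 sum. How often their shares move with heat shock, or are highest in COLO205, was therefore not counted, and no test was run on the shares. The 2 HSP90 genes made up 0.642% of all FPKM in HCT116, 0.291% in MDAMB231 and 0.139% in COLO205 in DMSO at 16 h.

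The balance between the inducible and the constitutive form also depended on the line. HSP90AA1 exceeded HSP90AB1 in COLO205, with ratios of 1.32, 1.26 and 1.28 in DMSO and 1.47, 1.41 and 1.50 in ML-792, and stayed below it in the other lines. In HCT116 at 16 h the ratio was 0.731, 0.670 and 0.674 in DMSO and 0.762, 0.783 and 0.804 in ML-792. At 3.5 h it was 0.783, 0.775 and 0.763 in DMSO, 0.833, 0.836 and 0.846 in ML-792, and 0.918, 0.938 and 0.861 after heat shock in DMSO. The groups were apart in each of these pairs with ML-792 and DMSO. Exact two-sided permutation tests of 3 against 3 libraries cannot go below p = 0.1, which 7 of the 10 contrasts reached (adjusted p = 0.143 over the 10). In MDAMB231 the mean ratio was 0.643 in DMSO and 0.640 in ML-792 (exact permutation p = 0.9). After heat shock in ML-792 it was 0.847, against 0.838 without heat shock (exact permutation p = 1), with library 2 at 0.772 and libraries 1 and 3 at 0.884 each.

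**Figure D5:**
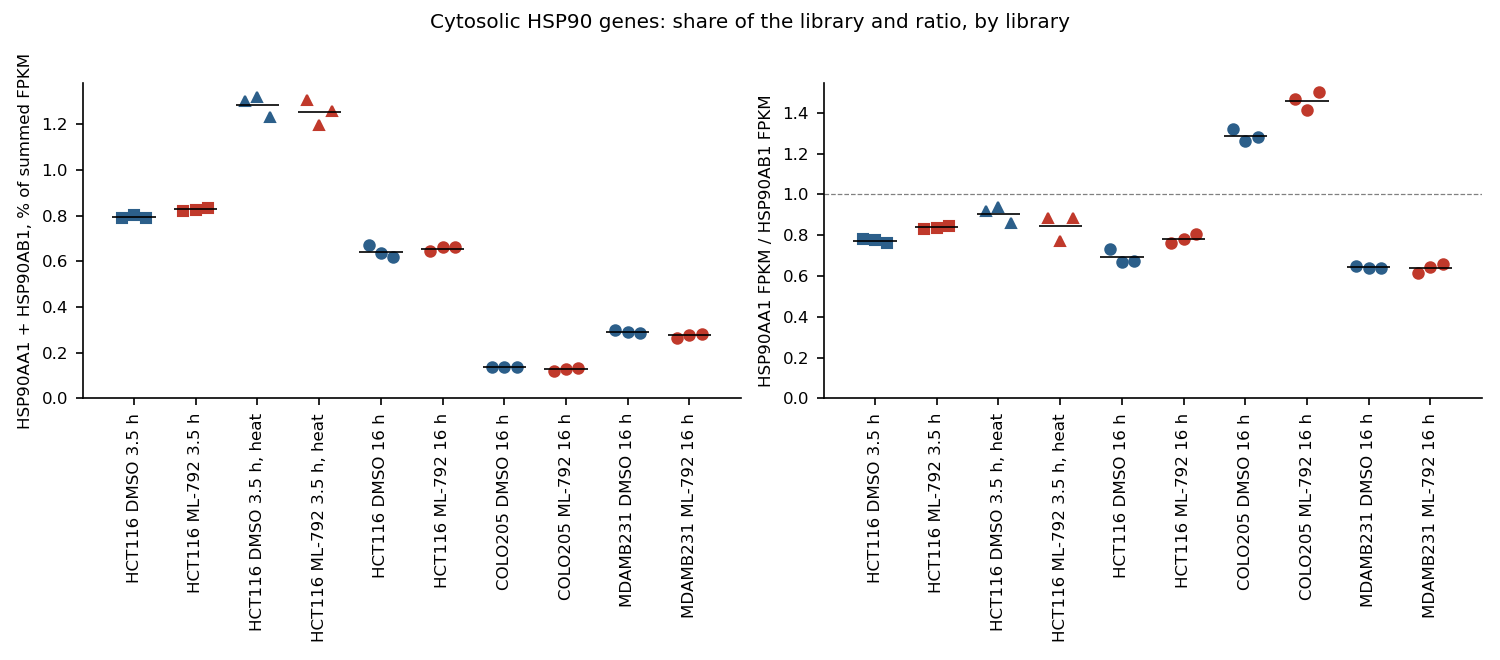
Left, HSP90AA1 and HSP90AB1 together as a percentage of the summed FPKM of a library; right, HSP90AA1 divided by HSP90AB1, with a dashed line at 1; points are libraries of the 10 groups. The share is highest after heat shock, and only the 6 COLO205 libraries lie above a ratio of 1.

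The genes with the most similar profile over the 10 group means, among 7122 genes above the median level, were listed for each member by Pearson's r on log2(FPKM + 1). These are descriptions over 10 groups that share lines, heat shock and libraries. Closest to HSP90AA1 were TCP1 (0.996), PCID2 and UBXN8 (0.993 each), and closest to HSP90AB1 were ZMYM4 (0.993), ZC3HC1 (0.991) and UBE2S (0.990). STIP1 was most like PRPF38B (0.999), RPL15 and HSBP1L1, and AHSA1 most like HSBP1L1 (0.996), PRPF38B and SOD1. CHORDC1 went with SNRNP40 (0.998), CCT7 and PCBP2, FKBP4 with SMG8 (0.996), TBCA and HNRNPA2B1, and CDC37 with SF3B2 (0.995), NDUFS5 and ZDHHC18. PTGES3 was most like EIF3E (0.988), DYM and HIBCH, and FKBP5 most like TRRAP (0.989), GPD2 and FRMD5. Between members r was highest for STIP1 and AHSA1 (0.995) and lowest for PTGES3 and FKBP5 (0.646).

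A wider list held 27 further HSP90 homologs, cochaperones and associated proteins. With heat shock in DMSO 12 of the 27 were called, where 49.5% of all genes were. Of these 10 rose and 2 fell (median 0.12, against 0.05 for all genes), led by CACYBP, which binds SIAH1 and HSP90 (1.29 ± 0.07), NUDC (1.05 ± 0.10), the AHSA1 relative AHSA2 (0.87 ± 0.07) and SUGT1 (0.82 ± 0.09). In ML-792 heat shock raised 16 and lowered 4 (median 0.26, against 0.10), where 61.7% of all genes were called. ML-792 changed 12 of the 27 in heat shocked cells (33.5% of all genes), 7 higher and 5 lower, such as ST13, the HSP70-interacting protein HIP (0.52 ± 0.09), and RPAP3 of the R2TP complex (-0.40 ± 0.09). The count of 12 became 4 without heat shocked library 2 of either DMSO or ML-792, 7 with no filter and 0 with only the compared libraries. At 3.5 h without heat shock 0 of the 27 passed in limma (1.21% of all genes), and 3 did with only the compared libraries.

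At 16 h ML-792 changed 4 of the 27 in HCT116 (3 higher), 14 in COLO205 (6 higher, 8 lower; median -0.04, against 0.00 for all genes) and 4 in MDAMB231 (3 higher), where 14.7%, 37.0% and 16.9% of all genes were called. The HCT116 count was 2 without ML-792 library 2 or 3 or DMSO library 3 and 9 without ML-792 library 1, and that of MDAMB231 was 2 without ML-792 library 2. With all 30 libraries in 1 fit both were 1. The largest change in COLO205 was that of HSP90B1, the HSP90 of the endoplasmic reticulum, from 563 to 909 FPKM (0.69 ± 0.05). TRAP1, the mitochondrial HSP90, was lower there (-0.40 ± 0.06). In MDAMB231 the immunophilin FKBP1A led (0.63 ± 0.05). ST13 was higher in all 3 lines, by 0.19 ± 0.04, 0.41 ± 0.04 and 0.19 ± 0.04 in HCT116, COLO205 and MDAMB231.

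For scale, 13 other chaperone genes known as HSF1 targets all rose with heat shock, in DMSO (median 2.85) and in ML-792 (median 2.54), where 28.9% and 39.3% of all genes were called higher. The largest rises in DMSO were those of HSPA1A (4.90 ± 0.66) and HSPA1B (4.57 ± 0.11), near-identical copies whose split is uncertain, followed by the HSP40 gene DNAJB1 (4.38 ± 0.08) and BAG3 (3.74 ± 0.08). With ML-792 in heat shocked cells 3 of the 13 were higher and 1 lower (33.5% of all genes called), and at 3.5 h without heat shock 2 were higher and 0 lower (1.21%). With only the compared libraries these counts of 4 and 2 became 0 and 8, and the 2 became 1 without DMSO library 1 or 3 or any 1 ML-792 library. At 16 h 5 were higher and 1 lower in HCT116 (14.7%), 7 and 1 in COLO205 (37.0%) and 4 and 0 in MDAMB231 (16.9%). The HCT116 count of 6 was 1 without ML-792 library 2 and 2 without library 3 of either group.

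Marker levels were checked once. Of 9 colorectal epithelial markers 5 reached 1 FPKM in HCT116 (VIL1, KRT20, LGALS4 and CEACAM5 did not) and 7 in COLO205 (not CDX2 and KRT20). In MDAMB231 3 of the 9 did. Of 7 mesenchymal markers 6 reached it in MDAMB231 (not SPARC), 2 in COLO205, and 6 in all HCT116 groups but DMSO at 3.5 h, which had 4. Their summed level was 1402 to 1697 FPKM in MDAMB231 and 217 to 386 FPKM in HCT116. Of 5 luminal breast markers 2 reached 1 FPKM in MDAMB231 (not ESR1, PGR and FOXA1). In COLO205 and in heat shocked HCT116 3 did (not ESR1 and PGR), and in the other HCT116 groups 1 did. This list therefore did not set the breast line apart. For blood cells, 0 of 3 markers reached 1 FPKM in any group. Depth relative to a reference library, read from the smallest values, was 0.829 to 1.06 at 16 h, 1.13 to 1.71 after heat shock and 1.47 to 2.25 in the other 3.5 h libraries. The part of depth in the heat shock results was not tested. Pseudogene and readthrough copies of members in the table (HSP90AB4P, HSP90B2P, PTGES3L and PTGES3L-AARSD1) stayed at or below 0.675 FPKM, though reads shared with copies that the table does not separate could not be counted.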

How the data were processed

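RNA of 30 libraries was made into stranded mRNA libraries and read as 50-base pairs, per the labels' protocols. The authors deposited FPKM per gene. DESeq2 1.10.1 is named in the submitters' processing notes, with no role. Which aligner, build and annotation were used is not given in the sources used here. FPKM keeps no read totals, so the depth behind a value is unknown beyond the relative depth given above. The libraries of every group had differing values, and each was counted as 1 sample because the labels call them biological triplicates. Differing values alone do not show that libraries came from separate cultures.

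Tests used limma 3.58.1 (R 4.3.3; moderated with trend and robust settings) on log2(FPKM + 1). A gene entered a fit if at least 3 of its libraries reached 1 FPKM. This scale understates changes of low genes. The fits held the 18 libraries of 16 h (14251 genes), the 12 of 3.5 h (12191) and 12 HCT116 libraries without heat shock (12462), with 1 mean per group. Calls had p under 0.05 after Benjamini-Hochberg adjustment over every gene of the comparison. Fits were tested on simulated data in which each gene had the same spread in every group. That simulation cannot show how calls behave with the wider spread of the heat shocked libraries. Ratio tests used scipy 1.17.1. The members and lists were chosen with earlier results of these data known. All 9 members are named. From the other lists up to 4 called genes per comparison with the largest change were eligible, and the text gives some of them. Likeness was ranked among genes above the median mean, without LOC or pseudogene names, 3 per member. Alternatives were pseudocounts of 0.1 and 5, no filter or 5 FPKM, 2 other scalings, no trend, fits on all 30 or only the compared libraries, and leaving out each library.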

Additional observations from a re-analysis of the deposited data

Results flagged for a closer look

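In 7 results the effect of a treatment differed between settings by a test of the difference itself (interaction contrasts in limma, Benjamini-Hochberg adjusted over all genes). The heat shock change of PTGES3 was lower in ML-792 than in DMSO by a difference of -0.72 (adjusted p = 0.0295). Of its heat shocked ML-792 libraries, 2 of 3 lay below all ML-792 libraries without heat shock, and library 3 lay above them. The 16 h change with ML-792 was lower in COLO205 than in HCT116 for HSP90AB1 (-0.21, adjusted p = 0.0205), STIP1 (-0.18, adjusted p = 0.0404) and FKBP5 (-0.33, adjusted p = 0.0013). It was lower in MDAMB231 than in HCT116 for HSP90AA1 (-0.24, adjusted p = 0.0489) and FKBP5 (-0.38, adjusted p = 0.00057). For AHSA1 it was higher in MDAMB231 than in COLO205 (0.21, adjusted p = 0.0335). These calls were not equally firm. Of 12 fits that each left out 1 library, the PTGES3 call was lost in 7. Calls between lines were lost in 2 for HSP90AB1, 9 for STIP1, 9 for HSP90AA1, 7 for AHSA1 and 0 for either FKBP5 difference. For FKBP5 every ML-792 library lay above every DMSO library in HCT116 and below it in COLO205 and MDAMB231.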

How the results depend on the processing

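No paired analysis was possible because replicates carry no number in the labels. Called changes of members kept their call in 364 of 432 fits that left out 1 library and in 543 of 584 fits with another setting, and 0 reversed. These totals pool comparisons of unlike firmness. Without 1 library, no call between lines in DMSO was lost. The losses fell on ML-792 comparisons and on FKBP5 with heat shock in ML-792.

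The number of members called moved by over 1.5 times as follows. For ML-792 in heat shocked cells (5) it was 3 with no filter or median-of-ratios scaling and 0 with only the compared libraries. For the heat shock interaction (1) it was 0 with no filter. For ML-792 at 16 h it was, in HCT116 (2), 1 with no filter, no trend or all 30 libraries, and 0 with median-of-ratios scaling, equal totals or only the compared libraries, and in COLO205 (5) 3 with no filter or all 30 libraries. At 3.5 h (0) it was 4 with only the compared libraries. For the joint test of lines (3) it was 5 with equal totals. For COLO205 minus HCT116 (3) it was 1 with only the compared libraries, for MDAMB231 minus HCT116 (2) 1 with a pseudocount of 0.1, no filter, either other scaling or no trend, and for MDAMB231 minus COLO205 (1) 2 with either other scaling and 0 with all 30 or only the compared libraries.

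Leaving out 1 library gave 9 to 9 members for heat shock in DMSO, 7 to 8 in ML-792, 2 to 5 for ML-792 in heat shock, 0 to 2 for the interaction, 0 to 0 at 3.5 h and for time, 0 to 2, 3 to 6 and 2 to 3 for HCT116, COLO205 and MDAMB231 at 16 h, 1 to 5 for COLO205 minus HCT116 and for the joint test, 1 to 3 for MDAMB231 minus HCT116 and 0 to 3 for MDAMB231 minus COLO205.

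The values that follow are differences between groups in the log2 ratio of HSP90AA1 to HSP90AB1, with 1 library left out. For heat shock they ran from 0.20 to 0.26 in DMSO and from -0.021 to 0.077 in ML-792. For ML-792 in HCT116 they ran from 0.11 to 0.12 at 3.5 h, -0.14 to -0.034 in heat shock and 0.16 to 0.22 at 16 h. For ML-792 at 16 h they ran from 0.16 to 0.20 in COLO205 and -0.032 to 0.021 in MDAMB231. Between lines in DMSO they ran from 0.88 to 0.94 (COLO205 minus HCT116), -0.13 to -0.062 (MDAMB231 minus HCT116) and -1.02 to -0.98 (MDAMB231 minus COLO205). The cause of these moves was not tested.

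Uncalled changes that changed sign under another scaling were CHORDC1 with ML-792 in heat shock (-0.018 with median-of-ratios scaling, -0.019 with equal totals) and between MDAMB231 and COLO205 (0.025 and 0.10), and AHSA1 with ML-792 in MDAMB231 (-0.0035 with equal totals). Without 1 library the range crossed 0 for these 3 (-0.081 to 0.14, -0.040 to 0.012 and -0.016 to 0.039), for HSP90AA1 with ML-792 in heat shock (-0.054 to 0.017) and COLO205 (-0.10 to 0.013), HSP90AB1 in HCT116 at 16 h (-0.028 to 0.014), PTGES3 in COLO205 (-0.060 to 0.012) and CDC37 in MDAMB231 (-0.083 to 0.033).

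Over all genes, the interaction count of 781 became 211 with no filter, 247 with equal totals and 2511 with all 30 libraries. ML-792 calls at 3.5 h (147) became 263 with all 30 and 728 with only the compared libraries, those in heat shock (4083) 255 and those in HCT116 at 16 h (2101) 1316 with only the compared libraries, and the time count (299) 150 with all 30. Without 1 library the counts ran from 77 (DMSO 3.5 h library 1) to 2520 (ML-792 heat shock library 3) for the interaction, 83 to 93 at 3.5 h, 1629 (DMSO heat shock library 2) to 5011 for ML-792 in heat shock, 1180 (ML-792 library 3) to 2822 for HCT116 at 16 h, and 156 (ML-792 16 h library 2) to 808 (ML-792 16 h library 1) for time. The shares of all genes called that are set beside these 5 comparisons move with them.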

Other observations

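The glucocorticoid receptor is a classic HSP90 client whose hormone binding FKBP4 and FKBP5 modulate, and FKBP5 is itself a known target of this receptor. NR3C1, the receptor gene, was listed at a mean of 0.00963 FPKM in COLO205, 2.77 FPKM in HCT116 and 19.7 FPKM in MDAMB231 (DMSO, 16 h). FKBP5 stood at 11.8, 23.7 and 21.2 FPKM in the same groups. Of 10 genes tested from a list of NR3C1 and known receptor targets, 8 rose and 1 fell with heat shock in DMSO (median 0.50, against 0.05 for all genes), led by the phosphatase gene DUSP1 (2.22 ± 0.10). In ML-792 7 rose and 0 fell (median 0.46). Over all genes 49.5% and 61.7% were called. With a filter at 5 FPKM, which can take low genes out of the test, the counts of 9 and 7 became 4 and 2. The drop therefore need not mean that calls failed.

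ML-792 at 16 h raised 0 and lowered 2 of these 10 genes in HCT116, raised 2 and lowered 5 in COLO205 (median -0.34) and raised 3 and lowered 1 in MDAMB231 (median 0.29), where 14.7%, 37.0% and 16.9% of all genes were called. The HCT116 count of 2 became 1 without library 2 or 3 of either group, and the MDAMB231 count of 4 became 2 without library 1 or 2 of either group. In COLO205 TSC22D3 (GILZ) fell by 1.26 ± 0.17, from 47.7 to 20.1 FPKM, in a line where NR3C1 was near 0. ERRFI1, an inhibitor of EGFR, was lower in all 3 lines, by -0.63 ± 0.16 in HCT116, -1.42 ± 0.16 in COLO205 and -0.55 ± 0.16 in MDAMB231. The labels name no steroid treatment, and these values carry no test of receptor activity.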
